A study of Mus musculus with 24 samples.

Results

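Group I metabotropic glutamate receptor (mGluR) signalling was followed through 9 genes, chosen as the receptor, scaffold, G protein, phospholipase C and IP3 receptor steps that DHPG engages: Grm5, Homer1, Homer2, Homer3, Gnaq, Gna11, Plcb1, Plcb4 and Itpr1. All 9 were present in both count tables, which held 23845 genes for RNA and 20436 for ribosome-protected fragments (RPFs), and all 9 passed the filter on low counts. Steady-state RNA and RPFs were sequenced from hippocampal slices of male mice 28 to 42 days old, either wild-type (WT) or Tsc2+/-, a germline heterozygote made by crossing CMV-Cre with Tsc2flox mice and bred on C57BL/6J. Slices of both genotypes received vehicle or DHPG, which activates this receptor class, at 100 µM for 5 min, and all were then chilled in cycloheximide, which stalls elongating ribosomes. Each of the 4 groups, WT vehicle, WT DHPG, Tsc2+/- vehicle and Tsc2+/- DHPG, had 3 RNA and 3 RPF libraries. Each library pooled the slices of several mice and came from slices with CA3 cut off, so levels are averages over neurons and glia, in which fewer cells of a type and less RNA per cell cannot be told apart.

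DHPG binds mGluR5, which Grm5 encodes. The receptor couples through Gq family alpha subunits, encoded by Gnaq and Gna11, to phospholipase C beta, encoded by Plcb1 and Plcb4, which splits a membrane lipid into diacylglycerol and IP3. IP3 opens the calcium release channel encoded by Itpr1 on the endoplasmic reticulum. Homer proteins, encoded by Homer1, Homer2 and Homer3, bind the receptor tail, the IP3 receptor and Shank scaffolds, and so hold these parts together at the postsynaptic density. In the hippocampus this pathway is best known for a form of long-term depression that needs new protein synthesis.

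RNA libraries held 14801679 to 24067838 counts and RPF libraries 5296006 to 13613673, of which the 9 genes took 0.215% to 0.237% and 0.185% to 0.210%. Of the non-zero counts in RPF libraries, 97.9% to 98.5% were even in replicates 2 and 3, against 48.2% to 49.0% in replicate 1. Tsc2, the gene targeted, was lower in every Tsc2+/- library than in any WT library of its assay, by -0.58 for RNA and -0.72 for RPF on the log2 scale, averaged over treatments (adjusted p 2.61e-12 and 9.16e-11). CA1 markers summed to 1639 to 1815 CPM (counts relative to the TMM-scaled library total) in RNA libraries, and CA3 markers to 86.2 to 111 CPM. Dentate granule cell markers were at 48.2 to 52.4 CPM in the RPF libraries of Tsc2+/- DHPG, below the 54.8 to 92.9 CPM of the other 9 RPF libraries. Blood markers were at 2.59 to 17.7 CPM in Tsc2+/- RNA libraries and at 16.3 to 35.2 CPM in WT RNA libraries.

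The sequence around the start codon of each gene is shown because translation of the coding sequence begins there. The 9 genes differed in how many RPFs they carried per RNA, as given below, and a link to this sequence was not tested. Each line gives 12 bases before the start codon, the ATG in capitals and 6 bases after it, 5′ to 3′, from the RefSeq Select transcript on GRCm38.p6.
Grm5: tcctttcctaaaATGgtcctt
Homer1: tcattgggcaaaATGggggag
Homer2: gcagcgccggagATGggagaa
Homer3: ccaacctgaccaATGtccaca
Gnaq: cacttcggaagaATGactctg
Gna11: aggaccgcgacgATGactctg
Plcb1: cgatgagcccagATGgctggg
Plcb4: ttgaataccatcATGgccaaa
Itpr1: tccaacacggacATGtctgac

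These windows lie at chr7:87602532-87602552 (Grm5, plus strand), chr8:70285290-70285310 (Homer3, plus), chr19:16133314-16133334 (Gnaq, plus), chr10:81544919-81544939 (Gna11, minus), chr2:134786521-134786541 (Plcb1, plus), chr2:135877386-135877406 (Plcb4, plus) and chr6:108236982-108237002 (Itpr1, plus). Those of Homer1 and Homer2 cross a splice junction and have no single interval. A purine 3 bases before the ATG, the base most often tied to efficient start codon use, was present in 7 of the 9 genes, Homer3 and Plcb1 being the exceptions. Among 12480 genes expressed in both assays 86.9% had it. A purine there together with a G straight after the ATG was found in 4 of the 9 (Grm5, Homer1, Homer2 and Plcb4) and in 46.3% of the 12480. Gnaq and Gna11 had the same 6 bases after the start codon.

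The genes were spread over 7 chromosomes. Grm5 spans 87583981 to 88135063 on chromosome 7, Homer1 93303757 to 93405129 on chromosome 13, Homer2 81600481 to 81706925 on chromosome 7 and Homer3 70282880 to 70294361 on chromosome 8. Gnaq spans 16132684 to 16388520 on chromosome 19 and Gna11 81528724 to 81545162 on chromosome 10. Plcb1 (134786164 to 135475258) and Plcb4 (135658603 to 136014602) follow each other on chromosome 2, and Itpr1 spans 108213083 to 108551116 on chromosome 6.

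Their transcripts differed in layout. Homer2 had the longest 3′ UTR of the 9, at 9772 nt against a median of 1105 nt over the 12480 genes, and its coding sequence of 1032 nt made up 9.41% of the transcript. Itpr1 was the reverse, with a coding sequence of 8250 nt that made up 83.5% of its transcript. Homer1 had the longest 5′ UTR, 1541 nt against a median of 168 nt, with 6 ATG triplets upstream of the start codon. Grm5 had a 5′ UTR of 718 nt and 9 upstream ATGs. Of the 9 genes 2 (Gna11 and Plcb4) had no upstream ATG, as did 51.8% of the 12480. Gnaq and Gna11 had coding sequences of the same 1080 nt, but 3′ UTRs of 5126 and 2071 nt. The layout bears on the values because RNA was counted over whole transcripts and RPFs over coding sequence without 30 nt at each end. Genes are therefore compared below per kilobase, except where a plain ratio of CPM is named. The lengths used for this were means over the RefSeq transcripts of each gene, not those of the RefSeq Select transcript alone. Counts were per gene, so the short activity-induced Homer1 transcript and the long ones were summed.

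**Figure D1:**
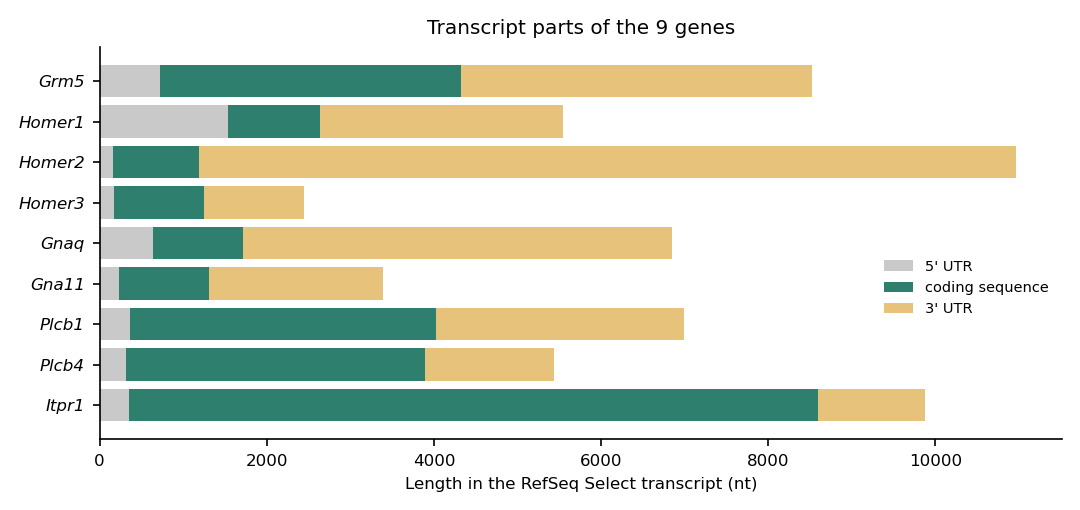
Stacked bars give the length in nt of the 5′ UTR, coding sequence and 3′ UTR of the RefSeq Select transcript of each gene. Homer2 carries a 3′ UTR of 9772 nt, and Itpr1 a coding sequence of 8250 nt.

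In WT vehicle slices the core of the pathway was abundant. Itpr1 had the most RNA per length of the 9, at 69.7 CPM per kb ± 3.28 (SD, n = 3), above 92.6% of the 12508 genes with a length in both assays. Gna11 was at 57.2 ± 1.35, Gnaq at 53.7 ± 3.44, Grm5 at 46.5 ± 2.55, Homer1 at 40.0 ± 4.14 and Plcb1 at 35.2 ± 2.11 CPM per kb. Homer2 was at 14.0 ± 2.48, Homer3 at 10.5 ± 1.01 and Plcb4 at 2.21 ± 0.182 CPM per kb, against a median of 8.33 over all genes. Plcb4 was thus the one gene of the 9 whose RNA lay below the median gene, above 20.7% of them.

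The order of RPFs per length was different. Gnaq led with 169 CPM per kb of coding sequence ± 20.9, followed by Grm5 with 163 ± 16.3, Homer1 with 125 ± 16.2 and Plcb1 with 109 ± 6.13. Gna11 was at 75.8 ± 2.94 and Itpr1 at 74.4 ± 3.61, with Homer2 at 21.2 ± 3.85, Homer3 at 10.8 ± 2.50 and Plcb4 at 6.57 ± 1.43. The median over all genes was 17.5, so the RPFs of Homer3 and Plcb4 were below it.

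**Figure D2:**
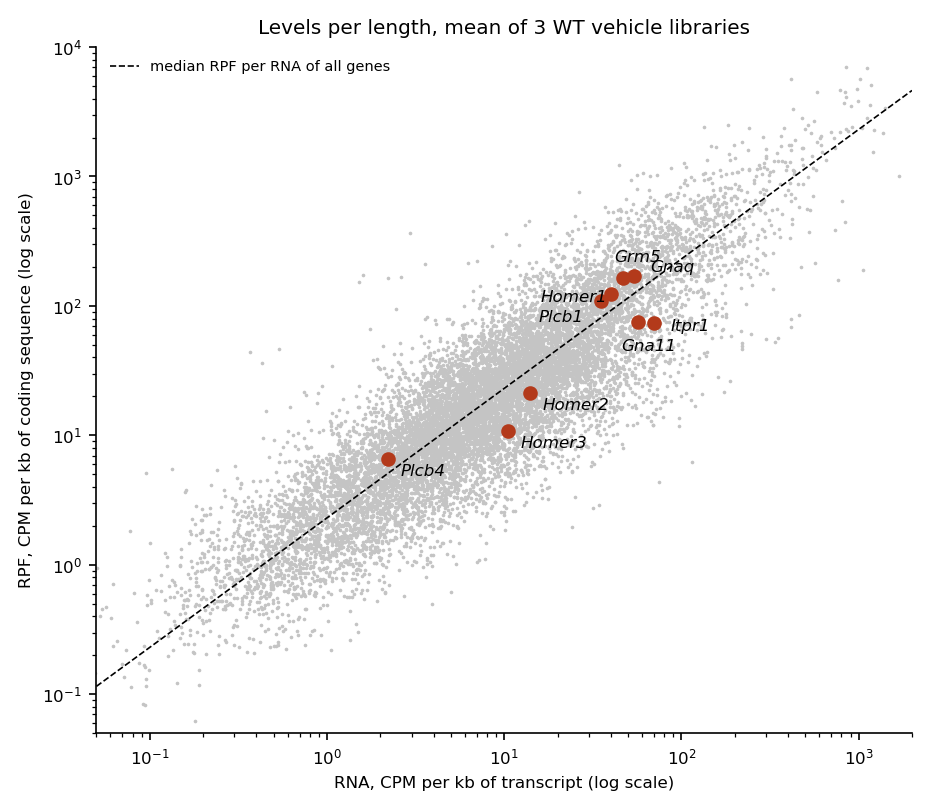
RNA (CPM per kb of transcript, log scale) is plotted against RPFs (CPM per kb of coding sequence, log scale) for 12508 genes in grey and the 9 genes in red, as means of the 3 WT vehicle libraries. The dashed line marks the median RPF per RNA of all genes, and Itpr1, Gna11, Homer2 and Homer3 lie below it.

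Within the Homer and phospholipase C families 1 of the genes studied led. Plcb1 exceeded Plcb4 by 14.1-fold to 19.0-fold in RNA over all 12 RNA libraries and by 14.1-fold to 19.3-fold in RPFs per length. Homer1 exceeded Homer2 by 2.17-fold to 3.17-fold in RNA and by 4.53-fold to 9.54-fold in RPFs. Against Homer3 it was higher by 2.80-fold to 4.29-fold in RNA and by 8.93-fold to 17.7-fold in RPFs. In no library did the RPF ratio of Homer1 to Homer2, or of Homer1 to Homer3, fall within the range of the RNA ratio. The G proteins were the exception in RNA. Gnaq stood at 0.793 to 1.0015 of Gna11 in RNA per length, but at 2.03 to 2.45 of it in RPFs.

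RPFs per RNA were taken as the ratio of the per-length values of the RPF and RNA library with the same group and replicate number. The 9 genes fell to either side of the median gene, which was at 2.31 in WT vehicle. Grm5 (3.52 ± 0.544, SD, n = 3), Gnaq (3.18 ± 0.598), Homer1 (3.15 ± 0.615), Plcb1 (3.11 ± 0.361) and Plcb4 (2.97 ± 0.525) were above it in WT vehicle and in all 12 pairs of libraries. Homer2 (1.51 ± 0.0662), Gna11 (1.33 ± 0.0721), Itpr1 (1.07 ± 0.0996) and Homer3 (1.02 ± 0.177) were below it in all 12. The lowest value of the 5 genes above was 2.44 and the highest of the 4 below was 1.79, so these 5 and 4 genes did not overlap in any pair of libraries. Homer3 stood above 15.3% of all genes, Itpr1 above 16.6%, Gna11 above 23.7% and Homer2 above 28.9%, while Grm5 stood above 71.9%. Because the groups of genes were formed from these values, no test was made of their difference.

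The side of the median depended on the length correction for Homer1 and Gnaq. As a plain ratio of CPM, for which the median gene was at 1.07, they were at 0.613 ± 0.120 and 0.474 ± 0.0891 (SD, n = 3), below the median, and only Grm5, Plcb1 and Plcb4 of the 9 remained above it. On that scale Homer2 was at 0.128 ± 0.00561, above 1.14% of all genes. Gnaq and Gna11, whose coding sequences are equally long, differed by less, at 0.474 and 0.400. RNA per length rests on the lengths RefSeq lists, and which transcripts these slices used was not tested.

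**Figure D3:**
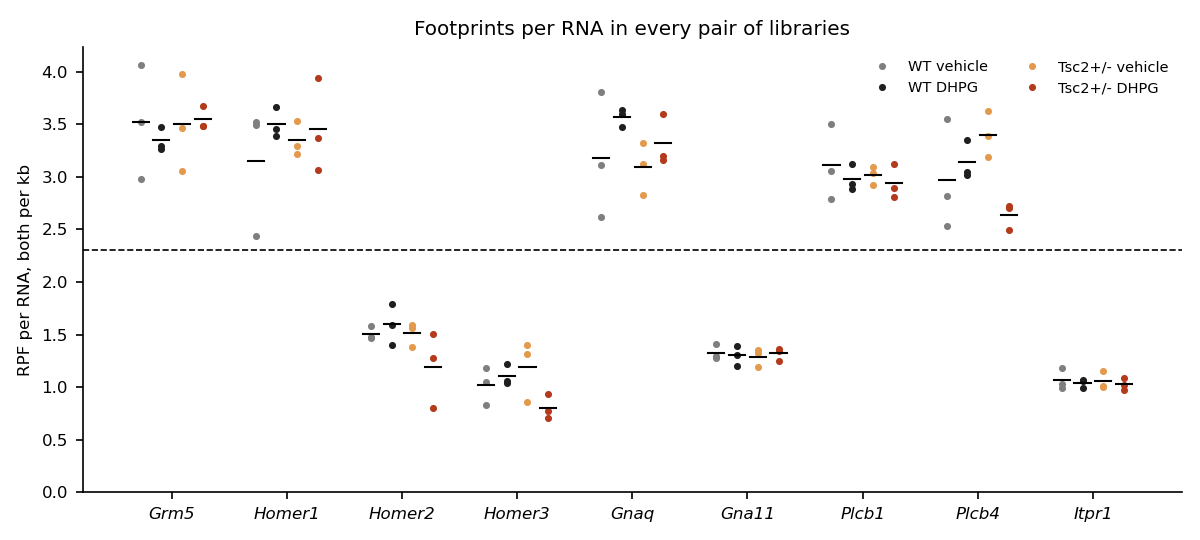
Each point is the RPF per RNA ratio, both per kb, of 1 pair of libraries, coloured by group, with a bar at the mean of 3, and the dashed line is the median of all genes in WT vehicle (2.31). Grm5, Homer1, Gnaq, Plcb1 and Plcb4 lie above the line in all 12 pairs, and Homer2, Homer3, Gna11 and Itpr1 below it.

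Across the 4 groups the levels of each gene differed little. The values below are CPM per gene, as mean ± SD of 3 libraries, and serve to compare groups, not genes. Ordered by group mean, neighbouring groups overlapped in all 81 neighbour pairs (9 genes in RNA, RPF and RPF per RNA). Over all genes 96.9% of such pairs overlapped in RNA, 96.8% in RPF and 96.8% in RPF per RNA, so this is no result about the 9 genes, and groups farther apart in the order did not overlap for some of them, as given below. The coefficient of variation over the 12 libraries was 2.83% to 12.7% for RNA and 3.51% to 19.0% for RPFs.

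For the receptor gene Grm5, RNA was at 394 ± 21.6 with vehicle and 387 ± 10.2 with DHPG in WT, and at 396 ± 38.7 with vehicle and 398 ± 4.98 with DHPG in Tsc2+/-. RPFs of Grm5 were at 571 ± 57.3, 535 ± 4.79, 568 ± 26.0 and 584 ± 24.1 in that order of groups. Tsc2+/- DHPG was highest and WT DHPG lowest in both assays.

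Among the scaffolds, Homer1 RNA was highest in WT vehicle (171 ± 17.7), followed by Tsc2+/- vehicle (160 ± 10.4), WT DHPG (154 ± 6.52) and Tsc2+/- DHPG (152 ± 14.8). Its RPFs ranged less, from 101 ± 3.61 in Tsc2+/- DHPG to 105 ± 3.38 in WT DHPG, with 103 ± 13.4 in WT vehicle and 105 ± 11.5 in Tsc2+/- vehicle. Both vehicle groups thus preceded both DHPG groups in RNA but not in RPFs. Homer2 RNA was at 154 ± 27.3 with vehicle and 159 ± 13.1 with DHPG in WT, and at 166 ± 3.15 and 165 ± 4.28 in Tsc2+/-. The corresponding RPFs were at 19.7 ± 3.58, 21.5 ± 3.23, 21.2 ± 1.53 and 16.6 ± 4.65. Homer2 RNA rested on 2532 to 3851 counts per library and its RPFs on 62 to 322. Homer3 RNA was at 25.7 ± 2.46, 24.7 ± 5.14, 25.8 ± 4.17 and 26.0 ± 2.53 in the same order, and its RPFs were at 10.95 ± 2.53, 11.3 ± 1.65, 12.5 ± 1.33 and 8.61 ± 0.655. Tsc2+/- DHPG was lowest for the RPFs of all 3 Homer genes.

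Of the G proteins, Gnaq RNA was highest in WT vehicle (368 ± 23.6) and Tsc2+/- vehicle (365 ± 18.8), then Tsc2+/- DHPG (343 ± 15.4) and WT DHPG (337 ± 9.74). Its RPFs had another order, with 179 ± 8.71 in WT DHPG, 173 ± 21.3 in WT vehicle, 169 ± 7.53 in Tsc2+/- DHPG and 168 ± 17.9 in Tsc2+/- vehicle. Gna11 was the steadiest of the 9 in RNA. It was at 194 ± 4.56 with vehicle and 200.3 ± 7.40 with DHPG in WT, and at 194 ± 4.60 and 192 ± 2.40 in Tsc2+/-, and its RPFs were at 77.3 ± 3.00, 78.4 ± 3.03, 75.2 ± 5.42 and 76.3 ± 3.74.

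Of the phospholipases, Plcb1 RNA was at 249 ± 14.9, 249.5 ± 9.20, 253 ± 3.83 and 258 ± 19.7 in the same order, and its RPFs were at 385 ± 21.6, 371 ± 6.71, 381 ± 11.9 and 378 ± 12.9. Plcb4 RNA was at 11.9 ± 0.982, 11.6 ± 0.643, 10.9 ± 0.819 and 12.3 ± 0.730, and its RPFs were at 21.9 ± 4.76, 22.4 ± 0.489, 22.9 ± 1.38 and 20 ± 2.005. Plcb4 had the reverse order in the Tsc2+/- groups, with DHPG highest of the 4 in RNA and lowest in RPFs. Itpr1 RNA was at 688 ± 32.4, 694 ± 32.8, 706 ± 54.8 and 708 ± 13.7, and its RPFs were at 609 ± 29.5, 599 ± 39.04, 617 ± 13.9 and 604 ± 21.997. The group means of Itpr1 spanned less than those of any other of the 9 genes, 1.03-fold in each assay.

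**Figure D4:**
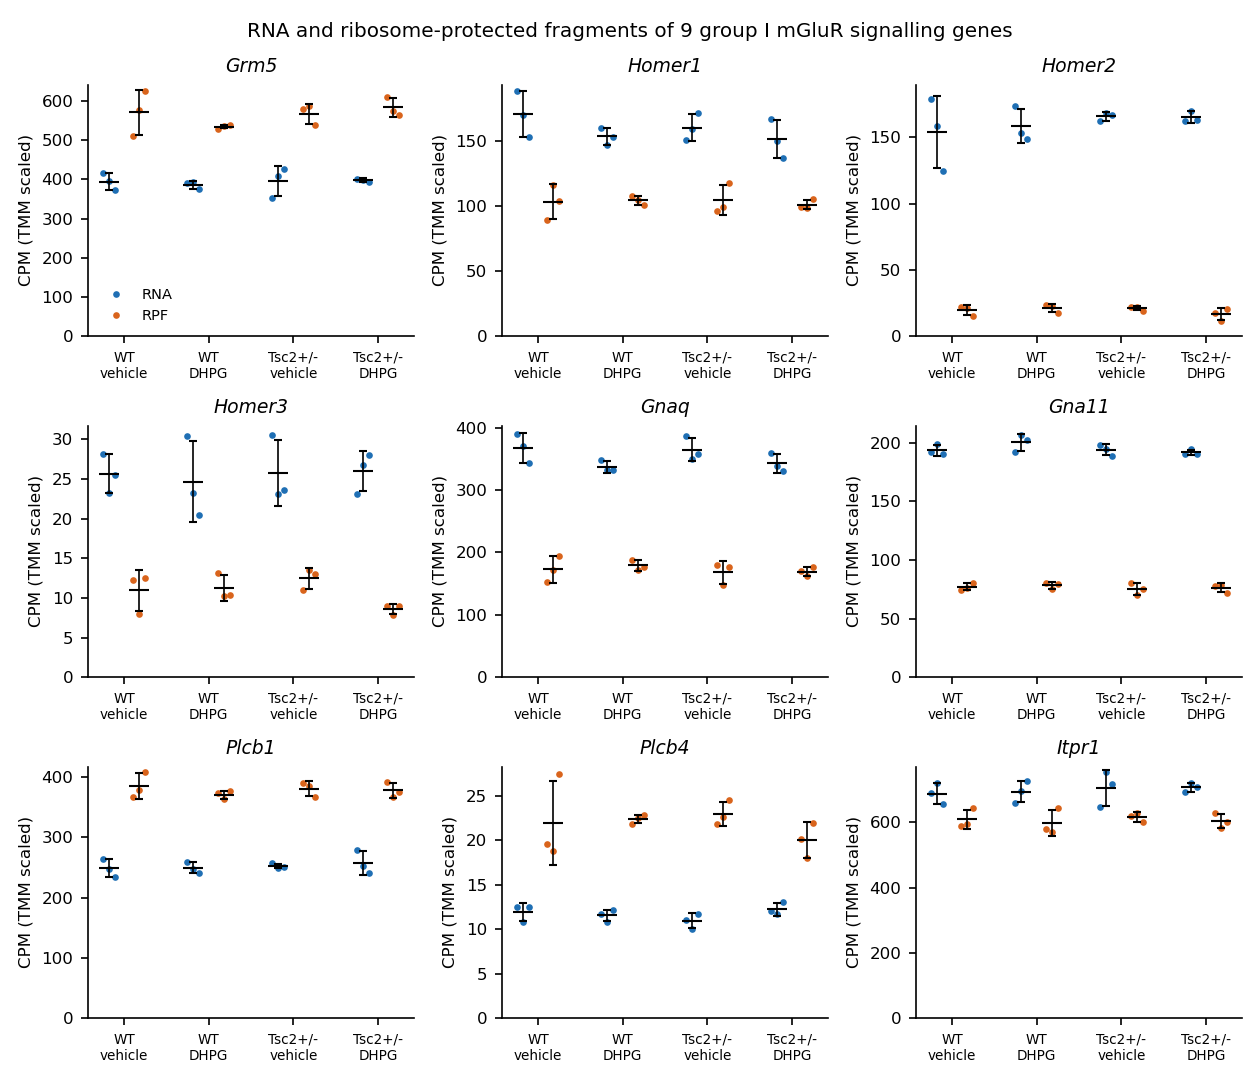
Points are single libraries in CPM, RNA in blue and RPF in orange, with mean and SD of each group of 3 in black, in 1 panel for each gene with its own axis from 0. The 4 groups overlap in most panels, and the RPFs of Homer3 in Tsc2+/- DHPG (7.85 to 9.003 CPM) sit at the low end of its range.

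Whether genotype or DHPG changed any of the 9 genes was asked in 7 comparisons each of RNA, RPF and TE (translational efficiency, the log2 fold change of RPFs less that of RNA). In the edgeR quasi-likelihood test none of the 9 was called at an adjusted p under 0.1 in any of the 21, and 15 of the 189 tests (7.94%) had an unadjusted p under 0.05, against 5.39% of the tests of all genes. DESeq2 called 1 of 189, with 11 at an unadjusted p under 0.05, and ComBat followed by DESeq2 called 2 of 126, with 14. All 3 calls were Gnaq RNA. Per comparison, DESeq2 called 0% to 0.774% of all genes, with 2.07% to 8.47% at an unadjusted p under 0.05. ComBat followed by DESeq2 called 0% to 2.87% of all genes, with 4.57% to 12.9% at such a p. The edgeR test called few genes of any kind, at most 0.248% of all genes in a comparison, so its count of 0 among 9 is no result about these genes. Where edgeR called no gene at all, DESeq2 called 0 to 1, and ComBat followed by DESeq2 called 350 genes in RNA for DHPG in WT and 0 to 2 elsewhere. The p-values measure the spread between libraries of pooled slices.

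DHPG was asked first, since these genes carry its signal. Gnaq RNA was at 389, 371 and 343 CPM in the WT vehicle libraries and at 348, 331 and 331 CPM in those of WT DHPG. In Tsc2+/- it was at 386, 350.1 and 358 CPM in vehicle and at 360, 339 and 330 CPM in DHPG. Every DHPG library was below the vehicle library with its replicate number, in 6 of 6 contrasts, though the groups overlapped. Averaged over genotypes, Gnaq RNA was -0.11 (SE 0.0341, 95% interval -0.18 to -0.04, adjusted p 0.518) in DHPG relative to vehicle on the log2 scale, a percent change of -7.12%. DESeq2 gave -0.11 with an adjusted p of 0.0696 and ComBat followed by DESeq2 -0.10 with 0.0205, beside 0.179% and 2.87% of all genes called by these tools in this comparison. Over the 15 fits without a replicate or a library the adjusted p of edgeR was 0.298 to 0.912.

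Homer1 RNA had a difference of the same sign. It was at 189, 170.1 and 153 CPM in WT vehicle against 160.4, 147 and 153 CPM in WT DHPG, and at 151, 159 and 171 CPM in Tsc2+/- vehicle against 167, 150.5 and 137 CPM in Tsc2+/- DHPG. The DHPG library was the lower in 5 of 6 contrasts, and both pairs of groups overlapped. Averaged over genotypes the log2 fold change was -0.12 (SE 0.0474, 95% interval -0.21 to -0.02, adjusted p 0.578). The other 7 genes had log2 fold changes of -0.03 to 0.06 in this comparison, and the median of the 9 was 0.00842, beside -0.000866 for all genes. In edgeR 0.0207% of all genes were called.

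Averaged over genotypes, RPFs in DHPG differed from vehicle by -0.21 for Homer3 (SE 0.130, adjusted p 0.783) and by -0.09 for Homer2 (SE 0.111, adjusted p 0.919), with 0.0311% of all genes called. TE differed by 0.14 for Gnaq (SE 0.0619, 95% interval 0.01 to 0.26, adjusted p 0.574), higher in 5 of 6 contrasts, and by 0.11 for Homer1 (SE 0.0807, adjusted p 0.756), with 0.0469% of all genes called. The medians of the 9 were -0.03 for RPF and -0.04 for TE, and those of all genes -0.00233 and -0.00249. The RPF log2 fold changes of Gnaq and Homer1 were 0.03 and -0.01, and none of these values passed the test.

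Within WT, DHPG and vehicle differed in Gnaq RNA by -0.12 (SE 0.0484, adjusted p 0.800) and in Homer1 RNA by -0.15 (SE 0.0675, adjusted p 0.806), each lower in 3 of 3 contrasts. ComBat followed by DESeq2 gave Gnaq an adjusted p of 0.0724 here, and called 2.41% of all genes. RPFs differed by -0.09 for Grm5 (SE 0.0593, adjusted p 0.766) and by -0.05 for Plcb1 (SE 0.0554, adjusted p 0.879). TE differed by 0.18 for Gnaq (SE 0.0873, adjusted p 0.556) and by 0.17 for Homer1 (SE 0.114, adjusted p 0.707), each higher in 2 of 3 contrasts. For Gnaq this was 0.04 without replicate 1 and 0.31 without replicate 3. The shares of all genes called were 0% in RNA, where 881 genes had an unadjusted p under 0.05, 0.0311% in RPF and 0.0548% in TE. The medians of the 9 were -0.03, 0.02 and 0.06, beside -0.00139, -0.00261 and -0.00119 for all genes.

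In Tsc2+/- slices Homer3 and Homer2 had the largest RPF differences between DHPG and vehicle of the 9 genes, and neither passed the test. Homer3 RPFs were at 10.99, 13.5 and 12.96 CPM in vehicle and at 9.003, 7.85 and 8.97 CPM in DHPG, with no overlap. In WT they were at 12.3, 8.03 and 12.6 CPM in vehicle and at 13.2, 10.3 and 10.4 CPM in DHPG, which overlapped. These values rested on 42 to 181 counts per library as deposited, which includes the nearly all even counts of replicates 2 and 3. The log2 fold change in Tsc2+/- was -0.51 (SE 0.188, 95% interval -0.89 to -0.13, adjusted p 0.999), a percent change of -29.9%. It was -0.36 without Tsc2+/- vehicle replicate 2 and -0.73 without Tsc2+/- vehicle replicate 1. Groups that did not overlap in RPFs were found for 1 of the 9 genes and for 9.42% of all genes.

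Homer2 RPFs were at 21.9, 22.3 and 19.4 CPM in Tsc2+/- vehicle and at 17.5, 11.6 and 20.8 CPM in Tsc2+/- DHPG. The groups overlapped, and the log2 fold change was -0.29 (SE 0.160, adjusted p 0.999), which was -0.09 without Tsc2+/- DHPG replicate 2 and -0.60 without Tsc2+/- DHPG replicate 3. Beside both Homer genes, the summed RPFs of the dentate granule cell markers were also lowest in Tsc2+/- DHPG, at 48.2 to 52.4 CPM against 65.1 to 81.4 in Tsc2+/- vehicle, 64.9 to 74.3 in WT DHPG and 54.8 to 92.9 in WT vehicle. In RNA the same markers summed to 41.4 to 50.6 CPM in Tsc2+/- DHPG, 50.5 to 60.7 in Tsc2+/- vehicle, 61.1 to 66.8 in WT DHPG and 46.7 to 75.5 in WT vehicle. None of the 5 dentate markers was at 0 in every library, and their part in the result was not tested. The mean RPF sums of CA1, astrocyte, oligodendrocyte, microglia, choroid plexus, blood and immediate early gene markers were also lowest in Tsc2+/- DHPG. For each of these lists the Tsc2+/- DHPG libraries overlapped those of another group. The sums of CA3, interneuron, and endothelial and mural cell markers were not lowest there.

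TE in Tsc2+/- differed between DHPG and vehicle by -0.53 for Homer3 (SE 0.244, adjusted p 0.9999) and by -0.36 for Plcb4 (SE 0.167, adjusted p 0.9999). The log2 ratio of RPF to RNA CPM of Plcb4 was 0.98, 1.16 and 1.07 in Tsc2+/- vehicle and 0.74, 0.62 and 0.75 in Tsc2+/- DHPG. The groups of Plcb4 did not overlap, as was so for 1 of the 9 genes and for 10% of all genes. Its RNA differed by 0.16 (SE 0.116, adjusted p 0.959) and rested on 177 to 295 counts per library. Gnaq RNA differed by -0.09 (SE 0.0479, adjusted p 0.959), lower in 3 of 3 contrasts. Of all genes 0% were called in RNA, RPF and TE, where 706, 498 and 424 had an unadjusted p under 0.05. The medians of the 9 were 0.00399, -0.03 and -0.04, beside 0.000316, -0.00134 and -8.97e-05 for all genes.

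The response to DHPG in Tsc2+/- minus that in WT, the interaction, was -0.60 for Homer3 RPFs (SE 0.258, 95% interval -1.13 to -0.08, adjusted p 0.996) and -0.40 for Homer2 RPFs (SE 0.220, adjusted p 0.996). For Homer3 it was -0.35 without replicate 2 and -0.80 without Tsc2+/- vehicle replicate 1. In TE it was -0.69 for Homer3 (SE 0.339, adjusted p 0.9999) and -0.45 for Plcb4 (SE 0.237, adjusted p 0.9999). In RNA it was 0.20 for Plcb4 (SE 0.169, adjusted p 0.999) and -0.07 for Gna11 (SE 0.0728, adjusted p 0.999). The share of all genes called was 0% in each of RNA, RPF and TE, where 510, 494 and 482 genes had an unadjusted p under 0.05. Over the 9 genes the medians were 0.03, -0.05 and -0.09, beside 5.66e-05, -0.00256 and -0.00145 for all genes. The test thus did not show that any of the 9 genes responded to DHPG differently in Tsc2+/-.

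The effect of genotype was asked next. In vehicle, Homer2 RNA differed by 0.12 (SE 0.0764, adjusted p 0.974) and Homer1 RNA by -0.08 (SE 0.0666, adjusted p 0.979), Tsc2+/- relative to WT. Without replicate 3 Homer2 was at -0.03, and without replicate 1 Homer1 was at 0.03. RPFs differed by 0.19 for Homer3 (SE 0.181, adjusted p 0.884) and by 0.09 for Plcb4 (SE 0.128, adjusted p 0.928), and TE by 0.21 for Plcb4 (SE 0.169, adjusted p 0.942) and 0.09 for Homer1 (SE 0.115, adjusted p 0.961). Of all genes 0.0964% were called in RNA, 0.0233% in RPF and 0% in TE, where 650 had an unadjusted p under 0.05. Over the 9 genes the medians were 0.00582, 0.01 and -0.01, beside -0.00189, -0.00337 and -0.000754 for all genes.

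In DHPG, Grm5 RPFs were at 530, 536 and 539 CPM in WT and at 611, 575 and 565 CPM in Tsc2+/-, with no overlap. The difference was 0.13 (SE 0.0591, 95% interval 0.01 to 0.25, adjusted p 0.9997), 9.19% more in Tsc2+/-. Homer3 RPFs did not overlap between the genotypes either, and differed by -0.41 (SE 0.184, adjusted p 0.9997). Homer2 RPFs differed by -0.32 (SE 0.155, adjusted p 0.9997), which was -0.11 without Tsc2+/- DHPG replicate 2 and -0.62 without Tsc2+/- DHPG replicate 3. Non-overlap in RPFs was thus seen for 2 of the 9 genes and for 10% of all genes. Called in RPF were 0.0155% of all genes.

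In the same comparison TE differed by -0.51 for Homer3 (SE 0.241, adjusted p 0.9998) and by -0.38 for Homer2 (SE 0.198, adjusted p 0.9998). RNA differed by -0.06 for Gna11 (SE 0.0515, adjusted p 0.996) and by 0.05 for Plcb1 (SE 0.0506, adjusted p 0.996). Of all genes 0.0482% were called in RNA and 0% in TE, where 344 had an unadjusted p under 0.05. The medians of the 9 were 0.04 for RNA, -0.05 for RPF and -0.03 for TE, beside -0.000187, -0.00437 and -0.00220 for all genes. The TE groups did not overlap for 3 of the 9 genes, Homer3, Grm5 (0.09) and Plcb4 (-0.24), and for 9.37% of all genes. Grm5 and Plcb4 are named here after their values were seen. The dentate markers in RPF libraries, again lower in Tsc2+/- DHPG than in WT DHPG, were given above, and their part was not tested.

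Averaged over treatments, Homer2 RNA differed by 0.09 (SE 0.0540, adjusted p 0.843) and Homer1 RNA by -0.05 (SE 0.0474, adjusted p 0.927), Tsc2+/- relative to WT. RPFs differed by 0.06 for Grm5 (SE 0.0419, adjusted p 0.823) and by -0.06 for Gnaq (SE 0.0520, adjusted p 0.863), and TE by -0.21 for Homer2 (SE 0.141, adjusted p 0.999) and by -0.06 for Gnaq (SE 0.0619, adjusted p 0.999). Of all genes 0.248% were called in RNA, 0.0544% in RPF and 0% in TE, where 515 had an unadjusted p under 0.05. Over the 9 genes the medians were 0.02, -0.04 and -0.01, beside -0.000881, -0.00257 and -0.00172 for all genes. The 95% intervals of all 9 genes in this comparison lay between -0.19 and 0.22 for RNA, between -0.38 and 0.15 for RPF and between -0.50 and 0.22 for TE.

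In the remaining pairs of groups no gene of the 9 was without overlap. In RNA this was so in all 4 comparisons of single groups, while 8.20%, 9.44%, 10.3% and 8.69% of all genes did not overlap for genotype in vehicle, genotype in DHPG, DHPG in WT and DHPG in Tsc2+/-. In RPF it was so for genotype in vehicle and DHPG in WT, against 8.29% and 8.96% of all genes, and in TE for the same comparisons, against 7.91% and 10.5%.

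**Figure D5:**
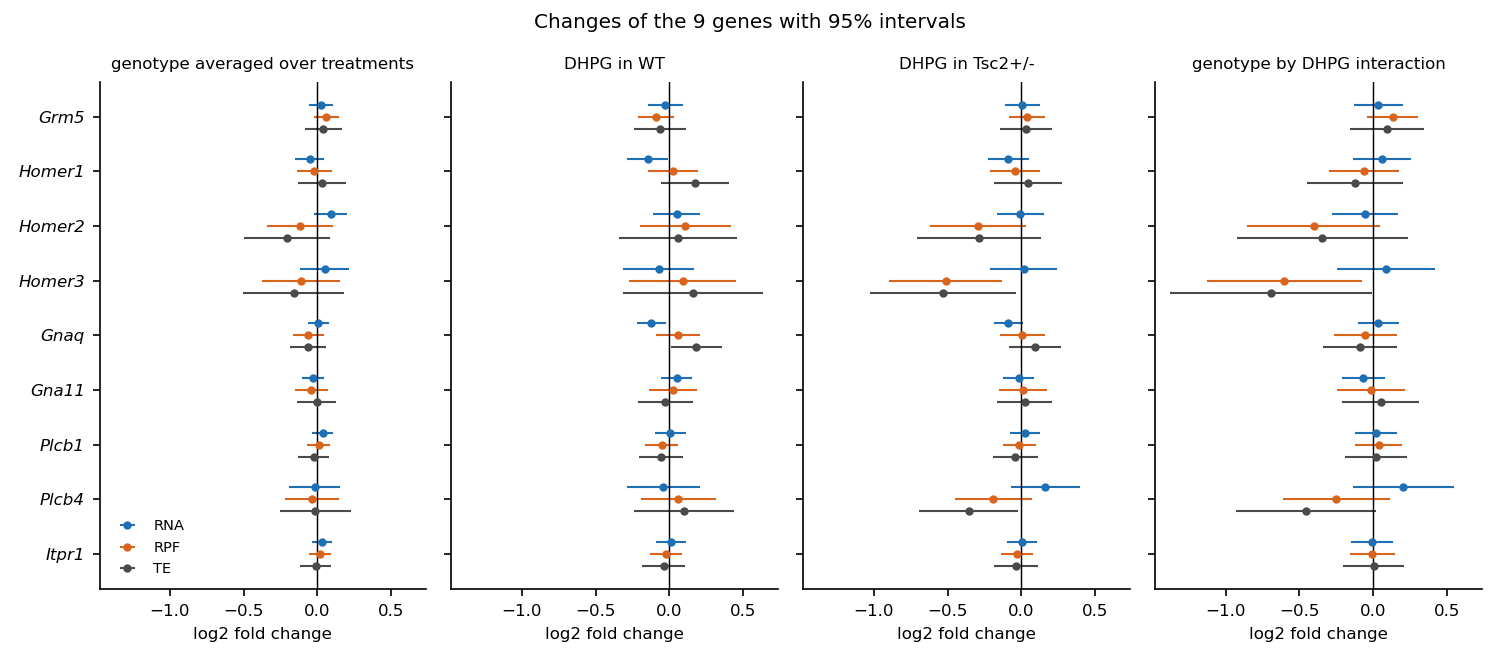
Log2 fold changes of the 9 genes with 95% intervals in 4 comparisons, for RNA (blue), RPF (orange) and TE (grey). Intervals are widest for Homer2, Homer3 and Plcb4, and the RPF interval of Homer3 for DHPG in Tsc2+/- runs from -0.89 to -0.13.

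A list of 34 other genes of the pathway was counted in the same fits: further Gq, phospholipase C, IP3 receptor and protein kinase C genes, receptor partners such as the Shank scaffolds, and genes of desensitization and calcium entry. All 34 were tested in RNA and 33 in RPF and TE. In edgeR, 0 of them were called higher and 0 lower in each of the 21 comparisons, and 0 to 7 per comparison had an unadjusted p under 0.05, against 2.69% to 8.67% of all genes. For DHPG in WT these were 7 of 34 in RNA and 7 of 33 in TE, where 6.07% and 8.67% of all genes had such a p. For genotype in vehicle they were 6 of 34 in RNA, against 4.95% of all genes. In the other comparisons they were 0 to 5. The comparisons named here share the WT vehicle RNA libraries, so their counts are not independent. The 34 genes were listed with earlier results of these data known. Counts above the share of all genes, here and below, are therefore no support for a response of the pathway. The smallest p-values for genotype, averaged over treatments, were those of Grasp, a scaffold that binds the tail of group I mGluRs, whose RNA was at -0.19 (SE 0.0556, adjusted p 0.418), and of Arrb1, which encodes a beta arrestin, at 0.11 (SE 0.0375, adjusted p 0.580). Grasp was called without replicate 1 (-0.27, adjusted p 0.0344) and without WT vehicle replicate 1 (-0.26, adjusted p 0.00797), where 0.274% and 0.3% of all genes were called. In RPF they were Itpr3 at -0.77 (SE 0.283, adjusted p 0.598) and Ncdn at -0.08 (SE 0.0355, adjusted p 0.697), and in TE Dagla at -0.18 (SE 0.0836, adjusted p 0.999) and Shank3 at -0.16 (SE 0.0780, adjusted p 0.999).

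For DHPG, averaged over genotypes, Shank2 RNA, among the smallest p-values, was at 0.10 (SE 0.0380, adjusted p 0.547). The smallest p-values in RPF were those of Itpr2 at -0.17 (SE 0.0690, adjusted p 0.612) and Prkca at -0.12 (SE 0.0498, adjusted p 0.613), and the smallest in TE was that of Shank3 at -0.21 (SE 0.0781, adjusted p 0.483). ComBat followed by DESeq2 called 6 of the 34 for DHPG in WT in RNA, at 0.12 to 0.26, among them Shank1, Shank2, Shank3, Dagla and Dlg4, where it called 2.41% of all genes. It also called 4 for genotype in vehicle, 2 for genotype averaged over treatments and 2 for DHPG averaged over genotypes, beside 0.875%, 0.944% and 2.87% of all genes. DESeq2 called 1 (Shank2) in TE for DHPG in WT, beside 0.774% of all genes. It called none of the 9 genes other than Gnaq, which was lower.

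The genes whose RNA followed Grm5, Homer1 and Itpr1 most closely were ranked by Pearson's r of log2 CPM over the 12 RNA libraries, after the mean of each replicate number was subtracted, among 12047 genes. They were Gabrb2 (0.957), Zfp292 (0.926) and Cnbd2 (0.925) for Grm5, Zfp597 (0.943), Esrrg (0.937) and Xiap (0.932) for Homer1, and Gfpt1 (0.973), Ltn1 (0.940) and Tulp4 (0.935) for Itpr1. None of these was among the 9 genes or the 34 of the pathway list. Between the 9 genes themselves, r over the 36 pairs ran from -0.56 to 0.69 in RNA with a median of 0.07, and from -0.54 to 0.90 in RPF with a median of 0.14. The libraries share depth, pooling and preparation, and these values are a description of 12 libraries.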

How the data were processed

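RNA-seq and ribosome profiling were made from the same pooled lysates, and the labels gave assay, genotype, treatment and replicate number. Per the study's methods and the submitters' processing notes, the authors trimmed adapters (cutadapt), removed rRNA and tRNA reads (Bowtie2), mapped to mm10 (TopHat2), dropped duplicates by molecular identifier and deposited expected counts from RSEM, here found as whole numbers. Whether they precede the study's batch correction is not given in the sources used here. RNA was counted over whole transcripts and RPFs over coding sequence without 30 nt at each end. Of RNA gene names 27 were dates, and 0 columns lacked a sample.

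Genes passing filterByExpr at a minimum count of 10 (14516 for RNA, 12877 for RPF, 12785 for TE) were scaled by TMM and tested in R 4.3.3 with edgeR 4.0.16 (limma 3.58.1), by the robust two-sided quasi-likelihood F test. Each assay had its own model of group plus replicate number, and TE was the assay by group term of a joint model of the 24 libraries, in place of the study's anota2seq. Benjamini-Hochberg adjustment ran over all genes in a comparison, with calls under 0.1. SE came from the F statistic. Lengths were RefSeq means per gene on GRCm38.p6, the build mm10 names, and sequences were those of RefSeq. A prior count of 2 went into log2 CPM.

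The 9 genes and all lists were chosen with earlier results of these data known. Statistics are printed for genes with an unadjusted p under 0.05 in a comparison, and otherwise for the 2 with the smallest p. Genes of like pattern are the 3 with the highest r among genes with a mean count of at least 50. Pathway genes are those called, and otherwise the 2 with the smallest p over the averaged comparisons. Some of these genes are not reported here. Alternatives left out the replicate term, the filter, or each replicate or library in turn. Others used DESeq2 1.42.0, ComBat (sva 3.50.0) before DESeq2, RLE scaling, calls under 0.05, a fit of the compared groups alone, halved RPF counts of replicates 2 and 3, a lysate block for TE, and the longest transcript. The edgeR tests of RNA, RPF and TE were run on simulated counts with known genotype changes, and scored for genotype in vehicle only. The other comparisons, the alternatives and the descriptive values were not tested in this way.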

Additional observations from a re-analysis of the deposited data

How the results depend on the processing

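None of the 9 genes was called in any of the 21 comparisons in the leave-one-out fits, nor with RLE scaling, no filter, calls under 0.05, a fit of the compared groups alone, halved RPF counts or the lysate block, where these were run. Of all genes at most 0.248% were called in a comparison with RLE scaling, 0.213% with no filter and 0.222% with the compared groups alone. With halved RPF counts it was at most 0.167% and with the lysate block 0.0391%, so a count of 0 there is no result about the 9 genes. Gnaq RNA made the count of the 9 genes called 1 for DHPG averaged over genotypes with DESeq2. With ComBat followed by DESeq2 it made that count 1 there and in WT. Among the 34 pathway genes ComBat followed by DESeq2 called, in RNA, 4 for genotype in vehicle, 6 for DHPG in WT, 2 for genotype averaged over treatments and 2 for DHPG averaged over genotypes, where it called 127, 350, 137 and 417 of 14516 genes, and DESeq2 called 1 (Shank2) in TE for DHPG in WT, where it called 99 of 12785. The cause was not tested. Leaving out a replicate or library gave 0 to 1 called pathway genes in RNA for genotype in vehicle, genotype averaged, DHPG in WT and DHPG averaged, 0 to 1 in TE for genotype in vehicle and DHPG averaged, and 0 to 4 in TE for DHPG in WT. Those calls came without WT vehicle replicate 2 (Shank1, Shank2, Shank3 and Ncdn), except Grasp for genotype averaged. Without that library 0.184% to 0.416% of all genes were called in RNA and 0.419% to 2.77% in TE in the comparisons concerned. The median log2 fold change of the 9 ran from 0.012 to 0.042 in RNA, -0.12 to -0.032 in RPF and -0.15 to -0.026 in TE for genotype in DHPG, from -0.047 to 0.014 in RNA for DHPG in WT and from -0.069 to -0.0043 in RPF for DHPG in Tsc2+/-.

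Over the same leave-one-out fits 120 of the 189 log2 fold changes of the 9 genes crossed 0, all uncalled. Of the 43 printed ones 33 moved by over 1.5 times in at least 1 fit, and 7 crossed 0. For genotype in vehicle, Homer1 RNA ran from -0.21 to 0.030, Homer2 RNA from -0.025 to 0.24, Homer3 RPF from -0.069 to 0.42 and Homer1 TE from -0.066 to 0.22. Homer1 TE for DHPG in WT ran from -0.0022 to 0.28, Grm5 RPF for genotype averaged over treatments from -0.00079 to 0.13, and Homer2 RPF for DHPG averaged over genotypes from -0.25 to 0.011. RPF per RNA per kb of Homer2 in WT vehicle was 1.40 with the longest transcript, against 1.51.

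With the replicate block left out, 0 of the 9 genes were called in any comparison, as were 0% to 0.117% of all genes per comparison. Of the 189 tests 7 had an unadjusted p under 0.05, against 15 with the block. The share of all genes with such a p was 2.02% to 6.19% per comparison without the block and 2.69% to 8.67% with it. Neither the 0 nor the fall is thus a result about the 9 genes. Same-numbered libraries deviated from their group means with r of -0.05 to 0.29 in RNA (median 0.12, 18 pairs) and 0.03 to 0.35 in RPF (median 0.16), over genes, which are not independent replicates. Medians for the other pairs were -0.06 and -0.08. Deviations cancel within a group, so these follow largely from the same-number values and are no separate comparison. Same-numbered libraries deviated together weakly, in every pair in RPF but not in every pair in RNA. No label says that the numbers mark a batch, and they stand in for the batch of the study's methods. Depth was lowest for the RPFs of Homer2, Homer3 and Plcb4, at 62 to 322, 42 to 181 and 96 to 300 counts per library as deposited. Counts of replicates 2 and 3 among these are nearly all even, and whether each stands for 1 fragment was not tested.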
